A study of Homo sapiens with 16 samples.

Results

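The 8 genes described here are the transcription factor gene Nfe2l2, its inhibitor gene Keap1 and 6 genes that the factor is known to switch on (Nqo1, Gclm, Gclc, Srxn1, Txnrd1 and Slc7a11), 8 of the 32285 genes counted in single cells of mouse mammary tumors. They were chosen by name as a core of the Nrf2 antioxidant pathway, and all 8 were found by symbol in the deposited count tables. Nfe2l2 encodes Nrf2, which the adaptor Keap1 holds for degradation until oxidants or electrophiles modify Keap1. Nrf2 then enters the nucleus and, paired with a small Maf protein, turns on genes for glutathione synthesis, thioredoxin recycling and detoxification. In tumors the pathway is known for protecting malignant cells from oxidative stress and drugs, and in macrophages for restraining oxidative damage during inflammation.

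The tumors were LPA1-T22 and LPA1-T127, 2 mouse mammary tumor lines derived from transgenic mice that expressed the lysophosphatidic acid receptor LPA1 in the mammary epithelium, grown from tumor pieces in the mammary fat pad of female FVB mice 6 weeks old. In the long-term experiment mice carried 1 line alone or both lines on opposite sides, and mice received vehicle or the PARP inhibitor olaparib (50 mg/kg daily by mouth) for 20 days. In the 2 short-term groups mice carried T22 or T127 and were treated for 4 or 8 days. The labels' protocol starts treatment 14 days after a T22 or 10 days after a T127 transplant, which cannot both hold for mice given both lines, where T22 was transplanted 14 days before T127. Each line is 1 tumor line, and cells of several tumors were captured together in pools. The title of every pool names tumors treated with or without olaparib. Which tumors a pool holds is not given, and no label used here ties a cell to its tumor, so treatments were not compared.

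Expression was read cell by cell in droplets, with transcripts counted by their molecular tags (unique molecular identifiers, UMIs). The 8 long-term pools held 30845 cells and 34755906 to 44032925 UMIs each, the 4 short-term T22 pools 15094 cells and 40270841 to 42436039 UMIs each, and the 4 short-term T127 pools 8007 cells and 49690430 to 55600377 UMIs each. Pools 1 and 2 of the long-term experiment shared 3939 cell barcodes, pools 2 and 3 shared 1082 and pools 1 and 3 shared 987, against 1 to 8 in the other 25 long-term pairs. With each shared barcode kept once, at its deepest copy, 25723 long-term cells remained. A level below is the UMIs of a gene summed over the cells of 1 deposited cluster label and 1 experiment, scaled to 1000000 UMIs of those cells (counts per 1000000, CPM). The labels do not tie a pool to particular tumors and cells are not replicates, so each experiment counts as 1 sample, no p-value was computed, and the intervals (exact, 95%) cover counting error only. A gene was called different between labels when the log2 ratio of CPM + 1 was at least 1 in size, a 2-fold difference, and the pool ranges did not overlap. A gene counted as tested when it reached 5 CPM on at least 1 side.

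Malignant cells carried 4 labels. Malign_0 and Malign_1 were the malignant labels of the short-term T127 pools (2515 and 2363 cells), and Malign_2 and Malign_3 those of the short-term T22 pools (1736 and 218 cells). The long-term pools held all 4 (2809, 1794, 1352 and 907 cells). By epithelial and stromal markers, Malign_3 was epithelial (Epcam at 2780 CPM and Krt8 at 2000 CPM in the long-term pools). Malign_2 had Epcam at 922 CPM beside the smooth muscle actin gene Acta2 at 7275 CPM. Malign_0 and Malign_1 had Krt8 (735 and 480 CPM) and the fibroblast gene Dcn (4305 and 4324 CPM) while Epcam was at 3.30 and 5.87 CPM. The leukocyte gene Ptprc stood at 3.21 to 8.87 CPM in the 4 labels, against 455 CPM in the long-term macrophages. The epithelial marker Epcam was thus nearly absent from the T127 labels, which are used here as the deposited annotation gives them. The paper called cells malignant by copy number changes, not by Epcam, and also reports more Epcam in the T22 than in the T127 labels.

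Of the 8 genes, 7 were tested in each malignant comparison and 1, Slc7a11, was too low. Srxn1 showed the largest differences. The gene encodes sulfiredoxin, which restores overoxidized peroxiredoxins. In the long-term pools 1 to 8 its level in Malign_0 was 48.5, 56.4, 48.8, 39.9, 52.7, 56.4, 55.0 and 47.7 CPM, or 50.9 CPM with all pools summed (interval 49.1 to 52.7). In Malign_1 the lowest, median and highest pools had 57.5, 65.0 and 81.3 CPM. In Malign_2 they had 1.23, 1.90 and 4.66 CPM, from 54 UMIs in all. In every long-term pool, then, Srxn1 was a well measured transcript in both T127 labels and was nearly missing from Malign_2. Malign_3 lay between, at 4.39 to 11.2 CPM (median 7.43), and its pools overlapped those of Malign_2 while staying far below both T127 labels. Within pools it was above Malign_2 in 8 of 8, by 0.20 to 2.01 on the log2 scale. Without pool 1 or without pool 8 the ranges of Malign_3 and Malign_2 were apart and Srxn1 was called higher in Malign_3, at log2 ratios of 1.47 and 1.38. Malign_0 had 22.2 times the Srxn1 level of Malign_2 (interval 16.9 to 29.6) and 7.23 times that of Malign_3 (5.99 to 8.82). All 4 labels share each long-term pool, and within the pools the log2 ratio of Malign_2 to Malign_0 ran from -4.55 to -3.11, so the gap was present in 8 of 8 pools. Pools 1, 2 and 3 shared many barcodes, so the 8 pools are not shown to be separate captures.

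**Figure D1:**
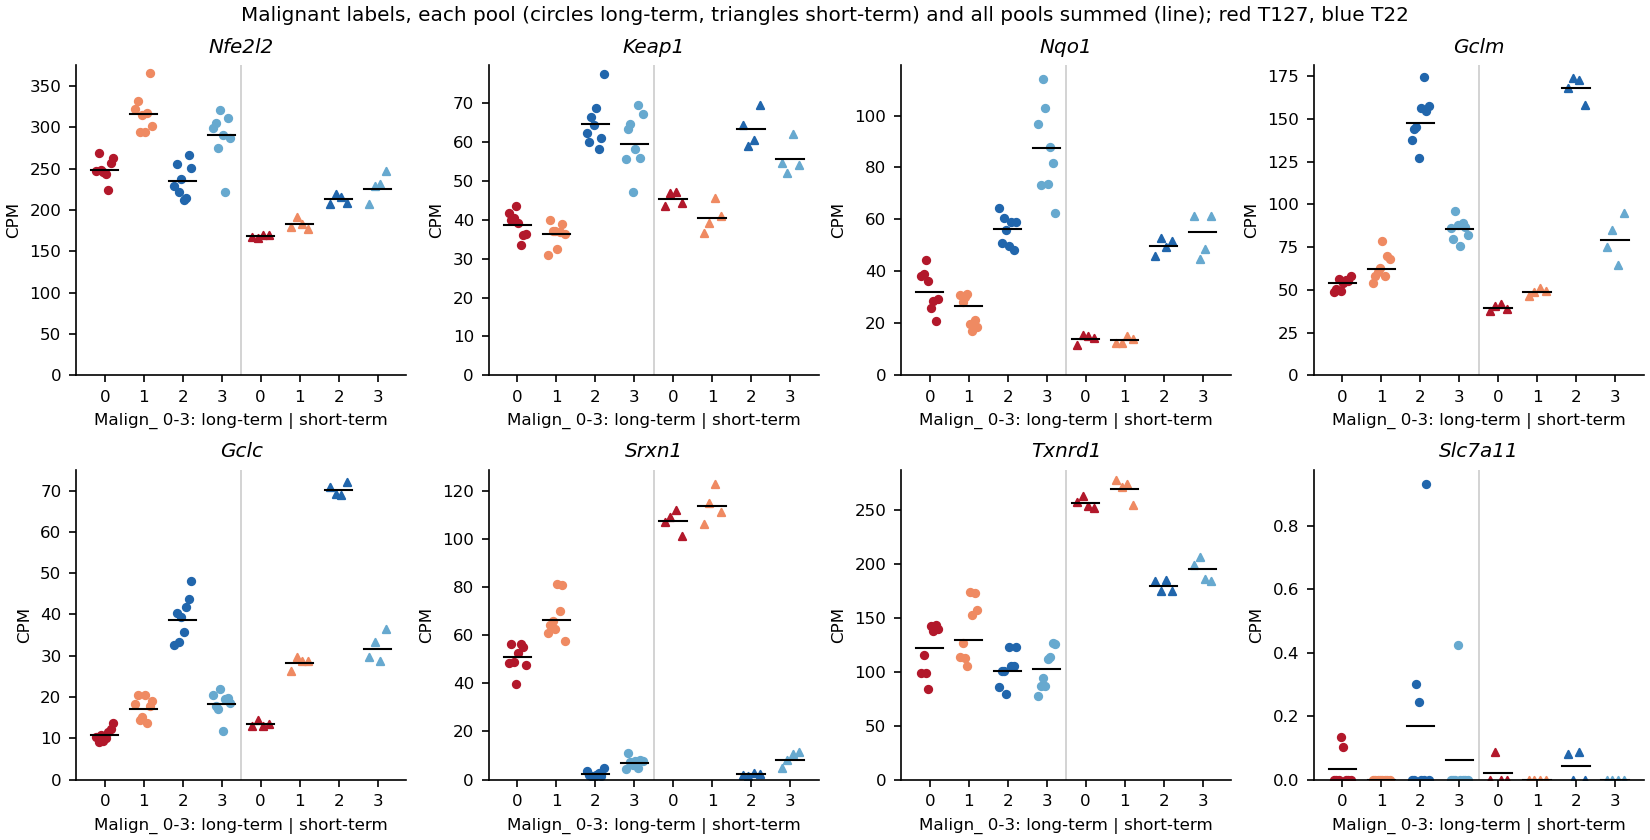
Level of each of the 8 genes (y axis, CPM) in the 4 malignant labels (x axis), long-term pools as circles on the left and short-term pools as triangles on the right of each panel, with a line for all pools summed. Labels of T127 are red and labels of T22 blue, and Srxn1 is at 50.9 and 66.5 CPM in long-term Malign_0 and Malign_1 but at 2.30 and 7.03 CPM in Malign_2 and Malign_3.

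The short-term tumors showed the same order for Srxn1 with a wider gap. The 4 T127 pools had 107, 109, 112 and 101 CPM in Malign_0 and 106, 115, 123 and 111 CPM in Malign_1. The 4 T22 pools had 1.98, 1.66, 2.78 and 2.19 CPM in Malign_2, from 102 UMIs, and 4.85, 8.08, 10.5 and 11.5 CPM in Malign_3, from 43 UMIs. No T22 pool came near a T127 pool. The level in Malign_0 was 50.2 times that in Malign_2 (interval 41.3 to 61.6) and 13.1 times that in Malign_3 (9.71 to 18.1). Here each tumor line was captured in its own pools, so line and capture cannot be told apart, whereas the long-term pools each hold both lines. Counted per cell at equal depth, with each cell thinned to 3000 UMIs, 14.7% of long-term Malign_0 cells and 15.1% of Malign_1 cells had a Srxn1 UMI, against 0.814% of Malign_2 and 1.10% of Malign_3 cells. Without thinning these shares were 59.8%, 61.0%, 3.18% and 10.6%, at median depths of 19775, 20459, 15779 and 15056 UMIs per cell. The thinned share in CD4_Tcm-TCF7 T cells, which served as background, was 1.36% (interval 0.550% to 2.79%) at a median depth of 2757 UMIs, with 623 shallower cells left out. Shares in both T22 labels were thus not above the share in those T cells. By level, long-term Malign_2 and Malign_3 were at 2.30 and 7.03 CPM, against 4.17 CPM in those T cells. The 5 T and NK labels ran from 2.17 to 19.7 CPM.

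Gclm and Gclc were highest in Malign_2 among the malignant labels. Gclm and Gclc encode the modifier and catalytic subunits of glutamate-cysteine ligase, which makes the first step of glutathione. The Gclm level in long-term Malign_2 had a lowest, median and highest pool of 127.01, 150 and 174 CPM. In Malign_0 the same values were 48.8, 54.7 and 58.0 CPM, in Malign_1 54.2, 61.7 and 78.7 CPM, and in Malign_3 75.9, 86.3 and 96.2 CPM. Malign_2 was therefore above every pool of the other 3 labels, and its Gclm level was 2.74 times that of Malign_0 (interval 2.61 to 2.88). In the short-term pools Gclm was at 168, 174, 172 and 158 CPM in Malign_2 and at 37.4, 40.3, 41.7 and 38.9 CPM in Malign_0, a ratio of 4.25 (4.09 to 4.42). Malign_3 was at 75.0, 85.3, 64.5 and 94.96 CPM, above both T127 labels in all 4 pools, and its log2 ratio to Malign_0 was 0.98, just under the call, while it was 1.01, 1.02 and 1.06 without T127 pool 3, T22 pool 1 or T22 pool 3. Within T22, Gclm was lower in Malign_3 than in Malign_2 in the short-term pools (log2 ratio -1.08), a call that was lost without T22 pool 3, at -0.99.

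Gclc separated the labels in a second way. The long-term pools had 32.5 to 48.0 CPM in Malign_2 (median 39.8), 11.7 to 22.05 CPM in Malign_3 (median 19.0), 13.7 to 20.5 CPM in Malign_1 (median 18.1) and 9.05 to 13.8 CPM in Malign_0 (median 10.5). Malign_2 was again the highest and Malign_0 the lowest, while Malign_1 and Malign_3 overlapped although they are labels of different tumor lines. The Gclc level in Malign_2 was 3.53 times that in Malign_0 in the long-term pools (interval 3.19 to 3.91) and 5.21 times in the short-term pools (4.88 to 5.56). Within T127, Malign_1 had more Gclc than Malign_0 in 8 of 8 long-term pools (ratio 1.56, interval 1.40 to 1.74). In the short-term T127 pools it stood at 26.4, 29.7, 28.7 and 28.7 CPM in Malign_1 against 12.97, 14.5, 13.04 and 13.4 CPM in Malign_0, a ratio of 2.10 (1.96 to 2.25) that was called by a narrow margin, since without T127 pool 3 the log2 ratio was 0.996. Within T22, Malign_3 had less Gclc than Malign_2 in both experiments (log2 ratio -1.04 long-term and -1.12 short-term). The long-term call was lost without pool 5, at -0.97. With 10 CPM added in place of 1 both calls were lost, at -0.78 and -0.94.

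Nqo1, the quinone reductase often used as a readout of Nrf2 activity, was highest in Malign_3 of the long-term pools, at 62.5 to 114 CPM (median 84.7). Malign_2 followed at 48.4 to 64.4 CPM (median 57.4), Malign_0 at 21.1 to 44.3 CPM (median 32.8) and Malign_1 at 17.3 to 31.4 CPM (median 24.7). Both T22 labels were above both T127 labels in every long-term pool range, and the ranges of the 2 labels within each line overlapped. Compared pool by pool, Nqo1 was higher in Malign_3 than in Malign_2 in 8 of 8 (summed ratio 1.55, interval 1.43 to 1.67). It was higher in Malign_1 than in Malign_0 in 1 of 8. The Nqo1 ratio of Malign_3 to Malign_0 was 2.72 (interval 2.54 to 2.92) and that of Malign_2 to Malign_0 was 1.76 (1.64 to 1.89), the second below the call. The Nqo1 call for Malign_2 against Malign_1 (ratio 2.11) was close to the threshold and was lost without long-term pool 6, at a log2 ratio of 0.99. In the short-term pools Nqo1 was at 46.0, 52.8, 49.2 and 51.6 CPM in Malign_2 and at 61.5, 44.9, 48.8 and 61.2 CPM in Malign_3. It was at 11.9, 15.4, 15.1 and 14.4 CPM in Malign_0 and at 12.5, 12.6, 15.0 and 14.0 CPM in Malign_1. All T22 pools were thus above 44 CPM and all T127 pools below 16 CPM, with ratios of 3.53 to 4.09.

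The other 4 genes differed less. Keap1, which encodes the adaptor that marks Nrf2 for degradation, had long-term pool ranges of 58.2 to 77.3 CPM in Malign_2 and 47.1 to 69.5 CPM in Malign_3, apart from those of Malign_0 (33.6 to 43.6 CPM) and Malign_1 (31.0 to 39.8 CPM). The ratios of T22 to T127 labels were 1.54 to 1.78, so the ranges stood apart but no pair reached 2-fold. In the short-term pools the Keap1 ratios were 1.22 to 1.56, again with ranges apart. Txnrd1, which encodes the cytosolic thioredoxin reductase, had ratios of T22 to T127 labels below 1. They ran from 0.775 to 0.840 in the long-term pools, where ranges overlapped, and from 0.667 to 0.759 in the short-term pools, where they did not. Compared pool by pool in the long-term experiment, each T22 label was above Malign_1 in 0 of 8 and above Malign_0 in 1 of 8. The short-term levels of Txnrd1 were 258, 263, 254 and 252 CPM in Malign_0 against 185, 175, 186 and 175 CPM in Malign_2. Slc7a11, which encodes the cystine importer xCT, gave 0 to 4 UMIs in each of the 8 malignant profiles. In long-term Malign_1 it had 0 UMIs, which allows a level of up to 0.0759 CPM, and in short-term Malign_1 0 UMIs, which allows up to 0.0367 CPM.

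Nfe2l2 itself was measured well in all 4 malignant labels, and their order was not the same in the 2 experiments. Its long-term pools ran from 224 to 269 CPM in Malign_0, 294 to 365 CPM in Malign_1, 212 to 266 CPM in Malign_2 and 221 to 321 CPM in Malign_3. Malign_1 was above Malign_2 in 8 of 8 pools, with a log2 ratio of Malign_2 to Malign_1 of -0.43. In the short-term pools Nfe2l2 was at 180, 191, 183 and 177 CPM in Malign_1 and at 207, 219, 215 and 209 CPM in Malign_2, so the T22 label was the higher, with a log2 ratio of 0.22. None of these Nfe2l2 differences reached 2-fold.

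Over the 6 pairs of malignant labels, 12 of 48 gene by pair comparisons were called in the long-term pools and 17 of 48 in the short-term pools. The 48 include Slc7a11, which was not tested, whereas the shares of all genes below are over genes tested. For Malign_1 against Malign_0 the calls were 0 of the 7 genes tested in the long-term pools and Gclc in the short-term pools, where 1.48% and 1.7% of all genes tested were called. For Malign_2 against Malign_0 they were Gclm and Gclc higher and Srxn1 lower in the long-term pools (3 of 7, with 37.6% of all genes called), and Nqo1 in addition in the short-term pools (4 of 7, 42.3%). For Malign_3 against Malign_0, Nqo1 was higher and Srxn1 lower in the long-term pools (2 of 7, 37.5%), and Gclc was higher in addition in the short-term pools (3 of 7, 43.2%). For Malign_2 against Malign_1, Nqo1, Gclm and Gclc were higher and Srxn1 lower in both experiments (4 of 7, with 38.3% and 42.1%). For Malign_3 against Malign_1, Nqo1 was higher and Srxn1 lower in both (2 of 7, 37.8% and 43.3%). Between the T22 labels, Malign_3 had lower Gclc in the long-term pools (1 of 7, 18.1%) and lower Gclm and Gclc and higher Srxn1 in the short-term pools (3 of 7, 21.6%). That Srxn1 difference rests on 43 and 102 UMIs, and its log2 ratio of 1.55 was 0.53 with cells thinned to 3000 UMIs and 0.58 with 10 CPM added in place of 1, both without a call. With thinned cells 5 further calls were lost at similar ratios. In the long-term pools these were Gclc for Malign_2 against Malign_1 (log2 ratio 0.997 thinned), Gclc for Malign_3 against Malign_2 (-1.20, with overlapping pools) and Nqo1 for Malign_2 against Malign_1 (0.94). The short-term ones were Gclc for Malign_1 (0.94) and for Malign_3 (0.88) against Malign_0. With 10 CPM added in place of 1 the same 5 calls were lost. So were Gclm (-0.999) and Gclc (-0.94) for Malign_3 against Malign_2 in the short-term pools. The members' shares of calls between the lines are thus near those of all genes, since more than 1 in 3 genes tested differed between any T22 and any T127 label.

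A stricter count asked which genes differed in the same direction in all 4 pairs of a T22 and a T127 label. Srxn1 was lower in T22 by this count in both experiments, beside 11.5% of all genes tested in the long-term and 13.4% in the short-term pools. Nqo1 was higher in the short-term pools, beside 11.6% of all genes, and 0 members were higher in the long-term pools, beside 9.81%. The median log2 ratio of the 7 tested members over the pairs Malign_2 and Malign_3 against Malign_0 and then against Malign_1 was 0.73, 0.61, 0.81 and 0.09 in the long-term pools, against -0.05, -0.03, 0.00045 and 0.0018 for all genes tested. The short-term medians were 0.47, 0.42, 0.63 and 0.30, against -0.11, -0.06, -0.04 and 0.0075. Each median of the members is the ratio of a single gene. That gene was Keap1, which encodes the inhibitor, at 0.73, 0.61, 0.81, 0.47 and 0.63. It was Gclc at 0.09 and Nfe2l2 at 0.42 and 0.30. The medians thus do not show a shared shift of the target genes. By summed ratio, Srxn1 and Txnrd1 were lower in T22 in all these pairs, and Nqo1, Gclm and Gclc were higher. For Gclc this was not clear in Malign_3 against Malign_1. Its ratios of 1.07 long-term and 1.12 short-term had overlapping pools and intervals that allowed either direction. Long-term pools also overlapped for Gclc in Malign_3 against Malign_0, Gclm in Malign_3 against Malign_1 and Txnrd1 in all 4 pairs.

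**Figure D2:**
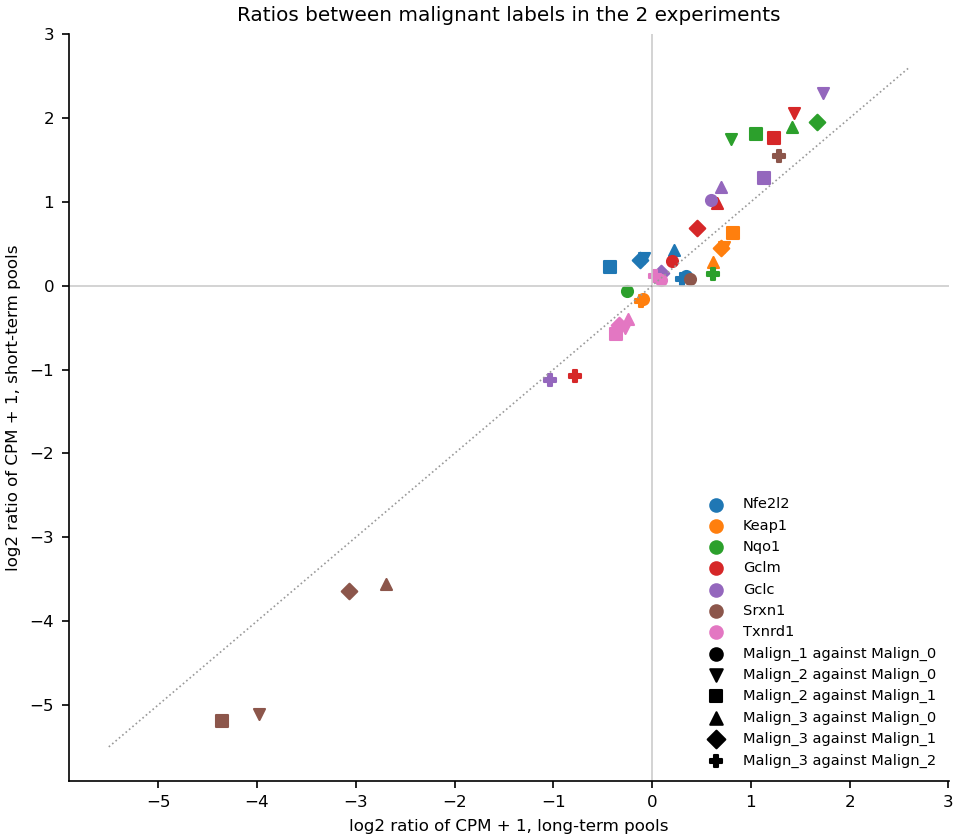
Log2 ratio of CPM + 1 between 2 malignant labels in the long-term pools (x axis) and the same ratio in the short-term pools (y axis), 1 point per gene (color) and pair of labels (shape), with the line of equal ratios dotted. Srxn1 lies far down on the left, from -2.69 to -4.36 long-term and -3.56 to -5.19 short-term for T22 against T127 labels, and Nfe2l2 in Malign_2 against Malign_1 lies at -0.43 and 0.22.

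Outside the malignant cells, each gene had its own distribution over the 21 labels with at least 50 cells in the long-term pools. Nfe2l2 was detected in all 21 and was highest in the 7 monocyte and macrophage labels, at 541 to 1198 CPM. The malignant labels had 234 to 316 CPM, i_CAF fibroblasts 308 CPM, endothelial cells 190.2 CPM and the 5 T and NK labels 86.8 to 114 CPM. Its highest label was Macro-M1 (pools 991 to 1425 CPM), which overlapped Macro-others next in order. Nqo1 was at 26.8 CPM or more in all 4 malignant labels and at 7.01 CPM or less in the others, apart from CD14-PF4 monocytes at 23.8 CPM, where 98 cells gave 25 UMIs and pools ran from 0 to 87.6 CPM. Slc7a11 was at 3.85 to 7.60 CPM in the 7 monocyte and macrophage labels and at 1.08 CPM or less in all others. The 2 genes were thus highest in different labels, malignant for Nqo1 and myeloid for Slc7a11, although CD14-PF4 had both. Gclm was highest in Malign_2, whose pools did not overlap those of the next label, Malign_3. Srxn1 was highest in Malign_1 and Malign_0, followed by Macro-M1 at 30.1 CPM. Txnrd1 was spread widely, from 41.8 to 130 CPM in 20 labels, and was at 9.69 CPM (interval 4.43 to 18.4) in plasmacytoid dendritic cells. Keap1 varied least, from 24.1 to 70.0 CPM, and no neighbours in its order were apart in their pools.

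**Figure D3:**
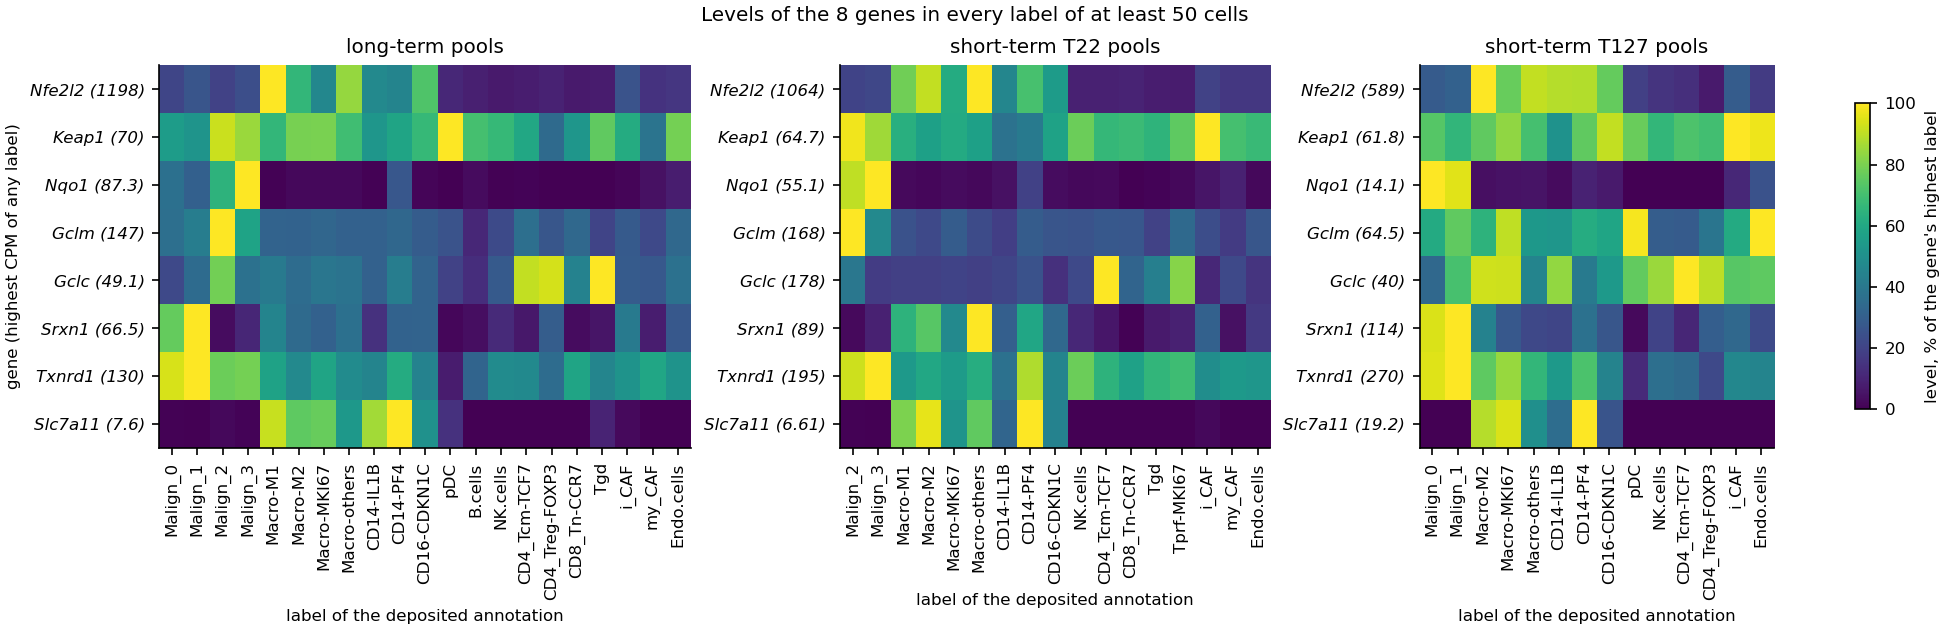
Level of each gene (y axis, with its highest level in CPM in parentheses) in every cluster label of at least 50 cells (x axis) for the long-term, short-term T22 and short-term T127 pools, colored as a percentage of the gene's highest label in that experiment. Nqo1 is bright in the malignant columns, Nfe2l2 and Slc7a11 in the monocyte and macrophage columns, and Gclc of the T22 pools in CD4_Tcm-TCF7 T cells at 178 CPM.

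Gclc was at its highest in T cells in the short-term T22 pools, while in the other groups the leading T cell label overlapped the labels next in order. In the short-term T22 pools the CD4_Tcm-TCF7 T cells had Gclc at 191, 169, 178 and 172 CPM (178 CPM summed, interval 171 to 184, 2438 cells), and proliferating Tprf-MKI67 T cells had 149, 155, 142 and 131 CPM. The 10% of CD4_Tcm-TCF7 cells with the most Gclc UMIs held 67.7% of them, against 44.2% for Txnrd1. Thinned to 3000 UMIs, 23.9% of these cells had a Gclc UMI (35.6% unthinned, median depth 6403 UMIs), against 9.91% of NK cells (21.4% unthinned, median depth 6543 UMIs). Both T cell labels were above the 70.2 CPM of Malign_2 in the same pools, and each of the 2 T cell labels was apart from its next label in all pools. In the long-term pools the CD4_Tcm-TCF7 label had 32.5 to 61.7 CPM (44.6 CPM summed, 1136 cells). In the short-term T127 pools the label had 7.11, 20.2, 50.8 and 68.7 CPM, from 204 cells and 26 UMIs. The T22 pools were thus above every pool of the other groups. Gamma delta T cells (Tgd) had Gclc at 77.0 CPM in the T22 pools and 49.1 CPM in the long-term pools, with overlapping ranges.

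The level of Txnrd1 moved with the experiment in every label compared, and those of Gclc, Srxn1 and Nfe2l2 in nearly every label of a single short-term group. Txnrd1 was higher than in the long-term pools in 16 of 16 labels of the short-term T22 pools, with a median ratio of 1.66, and in 14 of 14 labels of the short-term T127 pools, with a median ratio of 2.10. Gclc was higher in 16 of 16 and 10 of 14 labels, and Srxn1 in 12 of 16 and 14 of 14. Nfe2l2 was higher than in the long-term pools in 7 of 16 and 1 of 14 labels. Nqo1, at low levels in most non-malignant labels, was higher in 8 of 16 and 1 of 14. In Malign_0 and Malign_1 it was at 32.1 and 26.8 CPM in the long-term pools against 14.1 and 13.5 CPM in the short-term T127 pools. In Malign_2 and Malign_3 it was at 56.4 and 87.3 CPM against 49.9 and 55.1 CPM in the short-term T22 pools. Experiment, treatment time, transplant design and capture cannot be told apart in these ratios. For the non-malignant labels tumor line cannot either, since each short-term group held a single line and the long-term pools held both. The same counts over all genes were not made.

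Macrophages of the 2 lines were compared in the short-term pools, where each line was captured alone. The labels starting with Macro held 3447 T22 and 1588 T127 cells. Their makeup differed, with 1203 Macro-M1 cells in T22 and 3 in T127, so each label with enough cells was also compared on its own. Malignant markers still differed between the lines within these labels, with values given below. Slc7a11 was the member with the largest log2 ratio in the sum, Macro-M2 and Macro-MKI67, and Srxn1 in Macro-others. With all macrophages summed it was at 5.50, 5.08, 5.44 and 4.84 CPM in the T22 pools and at 18.7, 17.2, 13.5 and 16.1 CPM in the T127 pools. The 2 groups did not overlap, and the T127 level was 3.15 times the T22 level (interval 2.66 to 3.73, from 348 and 240 UMIs). With 10 CPM added in place of 1, its log2 ratio of 1.49 was 0.80 and that in Macro-M2 was 0.73, both under the call. In Macro-M2, which both lines held in number (670 and 1174 cells), Slc7a11 was at 8.88, 3.98, 6.67 and 5.78 CPM in T22 and 18.01, 17.7, 13.3 and 18.9 CPM in T127, a ratio of 2.68 (2.01 to 3.64). In the proliferating Macro-MKI67 label the ratio was 5.30 (3.15 to 9.40, from 79 and 18 UMIs), where the pools overlapped once cells were thinned to 3000 UMIs (log2 ratio 2.28), and in Macro-others it was 1.91 with overlapping pools, which stood apart without T127 pool 4, at a log2 ratio of 1.09. Thinned to 3000 UMIs, 4.68% of T127 Macro-M2 cells and 1.49% of T22 Macro-M2 cells had a Slc7a11 UMI (15.5% and 6.27% unthinned, at median depths of 11285 and 13221 UMIs), against 0 of 2216 T22 and 0 of 86 T127 CD4_Tcm-TCF7 cells, which allow shares of up to 0.135% and 3.49% (median depths 6403 and 2803 UMIs). The T127 limit lies near the T127 macrophage share, so the few T127 T cells set little background.

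Txnrd1 was also higher in T127 macrophages, at 211, 214, 204 and 193 CPM against 106, 110, 119 and 116 CPM in T22, a ratio of 1.82 (interval 1.75 to 1.90) that stayed under 2-fold. The Txnrd1 ratio was 1.74 in Macro-M2 and 2.14 in Macro-MKI67, where it was called, although its log2 ratio was 0.98 without T22 pool 2, 0.93 with thinned cells and 0.996 when centred on the median of all genes, each under the call. Nfe2l2 and Srxn1 were lower in T127 macrophages. Nfe2l2 was at 569, 545, 555 and 546 CPM in T127 against 847, 912, 951 and 930 CPM in T22, a ratio of 0.609 (0.597 to 0.622). In Macro-others its log2 ratio was -0.99, just under the call, and it ran from -1.03 to -1.01 when T127 pool 1, 2 or 3 or T22 pool 1 or 2 was left out. Srxn1 was at 44.4, 38.3, 47.8 and 43.3 CPM in T127 against 58.6, 71.5, 68.3 and 70.2 CPM in T22, a ratio of 0.646 (0.599 to 0.695). For both genes the pools of the 2 lines did not overlap. The Srxn1 pools overlapped in Macro-M2 (ratio 0.764) and in Macro-MKI67 (0.752), whereas in Macro-others the level was 45.2, 13.1, 20.1 and 20.96 CPM in T127 against 77.6, 92.2, 99.9 and 86.3 CPM in T22, a ratio of 0.279 (0.214 to 0.358) that was called. Gclc in Macro-others had a ratio of 0.538 with separate pools (interval 0.390 to 0.727), under the call. Centred on the median of all genes, Gclc (-1.03) and Nfe2l2 (-1.16) were called lower in Macro-others. Srxn1 UMIs sat in few cells of T22: in its 4 macrophage labels the 10% of cells with the most held 75.0% to 76.0% of them, against 39.8% to 47.6% for Txnrd1. In T127 the Srxn1 range was 41.6% to 64.6% over 3 labels. The order of the lines for Srxn1 in Macro-others and in all macrophages summed was thus opposite to that in malignant cells, and the difference between these contrasts was not tested. Keap1, Gclm and Gclc had ratios of 1.23, 1.08 and 1.03 with all macrophages summed.

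**Figure D4:**
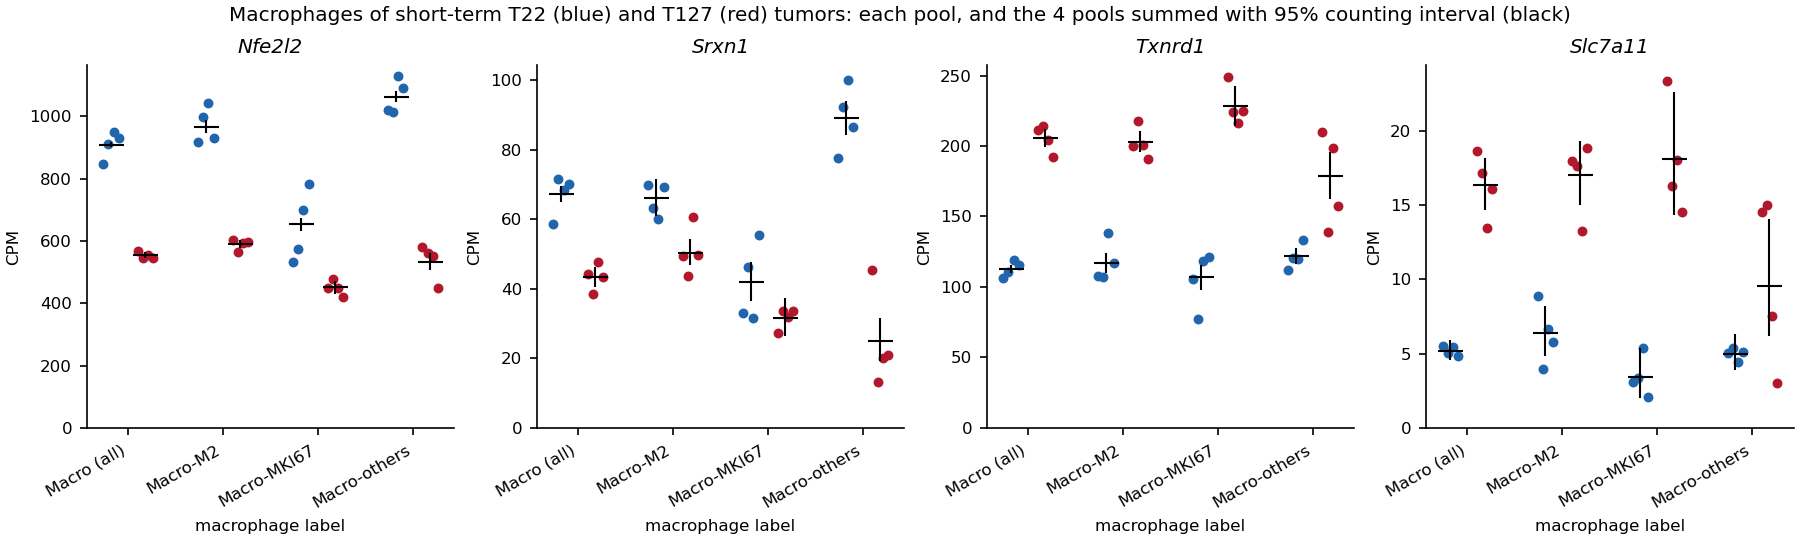
Level (y axis, CPM) of Nfe2l2, Srxn1, Txnrd1 and Slc7a11 in all macrophages and in each of 3 macrophage labels (x axis) of the short-term pools, T22 in blue and T127 in red, 1 point per pool, with a black bar for the 4 pools summed and its 95% counting interval. Slc7a11 in all macrophages is at 4.84 to 5.50 CPM in the T22 pools and 13.5 to 18.7 CPM in the T127 pools, while Nfe2l2 is higher in every T22 pool.

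Of the 7 members tested in macrophages, 1 was called with all macrophages summed (15.3% of all genes tested) and 1 in Macro-M2 (13.6%). In Macro-MKI67 2 were called (13%) and in Macro-others 1 (16.5%), or 5 of 32 gene by label comparisons in all. The 32 include Nqo1, which was not tested, and the sum holds the cells of the single labels. The median log2 ratio of the members tested was 0.11, 0.16, 0.24 and -0.15 in these 4 comparisons, and that of all genes tested was 0.10, 0.08, 0.10 and 0.14. Free malignant RNA was estimated from Krt8 and Krt18, which stood at 2.07% of their malignant level in T22 macrophages and at 1.24% in T127 macrophages. At these rates the malignant cells would add 3.76 and 3.26 CPM of Txnrd1, 0.0567 and 1.37 CPM of Srxn1 and less than 0.001 CPM of Slc7a11. For Nqo1 they would add 1.04 and 0.172 CPM, against measured levels of 1.26 and 0.612 CPM. In T22 Macro-others the same estimate for Nqo1 was 1.54 CPM against 1.20 CPM measured. The part of free RNA in these levels was not tested. Slc7a11 was at 0 UMIs in T and NK cells of both short-term groups. The 4 malignant markers summed to 443 CPM in T127 macrophages (pools 371 to 505) and 123 CPM in T22 macrophages (105 to 150), with 0 of the 4 markers at zero. Epcam (255 CPM) and Cdh1 (165 CPM) made up most of the T127 sum although the T127 malignant labels had Epcam at 0.893 and 2.04 CPM. Within single labels the 4 markers summed to 298 CPM in T127 against 72.0 CPM in T22 for Macro-M2. The sums were 690 against 243 CPM for Macro-MKI67 and 823 against 71.4 CPM for Macro-others. The part of these differences in the member levels was not tested.

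The wider pathway was followed through 55 further genes in 9 lists, which cover glutathione use, NADPH supply, thioredoxin, conjugation, export, iron storage, partners of Nrf2, superoxide and peroxide enzymes and the Atf4 stress program that also drives Slc7a11. In at least 1 of the 12 malignant comparisons 45 of the 55 were called, beside 61.7% of all genes tested. The counts by list were 7 of 7 for glutathione, 5 of 6 for NADPH, 4 of 4 for thioredoxin, 10 of 13 for conjugation and detoxification, 2 of 3 for export, 2 of 2 for iron storage, 6 of 9 for regulators, 2 of 3 for superoxide and peroxide enzymes and 7 of 8 for the Atf4 program. By the count over all 4 pairs of a T22 and a T127 label, 8 of 53 tested were higher and 8 lower in T22 in the long-term pools, and 11 of 54 were higher and 7 lower in the short-term pools. The same counts over all genes tested were 9.81% higher and 11.5% lower in the long-term pools and 11.6% higher and 13.4% lower in the short-term pools.

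Of the 13 conjugation and detoxification genes, 4 were higher (Gsta4, Gstm2, Mgst1 and the carbonyl reductase gene Cbr1) and 2 were lower (Aldh3a1 and Ugdh) in all 4 pairs of a T22 and a T127 label, in each experiment. Mgst1, a microsomal glutathione transferase, was at 576 and 476 CPM in long-term Malign_2 and Malign_3 and at 2.42 and 4.63 CPM in Malign_0 and Malign_1. In the short-term pools Mgst1 was at 465 CPM in Malign_2 against 0.648 CPM in Malign_1, a log2 ratio of 8.14. Gsta4, a transferase for lipid peroxidation products, was at 538 CPM in long-term Malign_3 against 7.27 CPM in Malign_0 (log2 ratio 6.03), and Gstm2 at 42.0 against 0.428 CPM (4.91). In the opposite direction, the aldehyde dehydrogenase gene Aldh3a1 was at 1.96 CPM in long-term Malign_2 against 84.5 CPM in Malign_1 (-4.85). By the largest log2 ratio of each gene, Mgst1 and Gsta4 thus differed between the lines by more than any of the 8 core members.

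Slc3a2, which encodes the heavy chain that pairs with xCT and with other amino acid transporters, was at 1952 CPM in long-term Malign_2 against 193 CPM in Malign_0 and at 1730 against 152 CPM in the short-term pools (log2 ratio 3.498), although Slc7a11 was nearly absent from these cells. The gamma-glutamyltransferase gene Ggt5 had a larger log2 ratio from a lower level, at 20.8 CPM in short-term Malign_2 against 0.0425 CPM in Malign_0 (4.38). The glutathione peroxidase gene Gpx4 was lower, at 224 against 837 CPM (-1.90). The glutathione-degrading gene Chac1 was at 1.62 CPM in long-term Malign_2 against 20.3 CPM in Malign_1 (-3.02). Glutathione genes thus split, with the transporter chain higher and Gpx4 lower in Malign_2.

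For NADPH supply, the malic enzyme gene Me1 was at 73.0 CPM in long-term Malign_2 against 11.8 CPM in Malign_1 (log2 ratio 2.53). Among pentose phosphate genes, Taldo1 was at 1340 CPM in short-term Malign_3 against 340 CPM in Malign_2 (1.97) and Tkt at 491 CPM against 138 CPM in Malign_0 (1.83). The isocitrate dehydrogenase gene Idh1 was lower, at 46.6 CPM in long-term Malign_3 against 153 CPM in Malign_0 (-1.69). For thioredoxin, Txn1 was at 2512 CPM and Prdx1 at 2210 CPM in short-term Malign_3, against 790 CPM and 774 CPM in Malign_1, and Txnip, an inhibitor of thioredoxin, at 175 CPM against 39.5 CPM in Malign_0. Prdx6, in turn, was at 47.1 CPM in short-term Malign_2 against 143 CPM in Malign_0. Txn1 was higher in T22 in all 4 pairs of both experiments, while its reductase gene Txnrd1 was called in 0 of them, with ratios of 0.667 to 0.840.

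Of the 2 ferritin genes, Fth1 was lower in all 4 pairs of a T22 and a T127 label in both experiments and Ftl1 in the short-term pools. Of the 9 regulators, Mafg was lower by this count in both experiments and Maff in the long-term pools. The ferritin heavy chain gene Fth1 was at 7068 CPM in long-term Malign_3 against 35676 CPM in Malign_1 (log2 ratio -2.34), and the light chain gene Ftl1 at 1359 against 4018 CPM in the short-term pools (-1.56). Among regulators, the small Maf gene Mafg was at 47.9 CPM in long-term Malign_2 against 140 CPM in Malign_1, and Maff at 7.29 CPM in short-term Malign_2 against 88.6 CPM in Malign_1. Sqstm1, whose product p62 binds Keap1, was at 149 CPM in long-term Malign_3 against 606 CPM in Malign_1, and the repressor gene Bach2 was low throughout, at 6.31 CPM in short-term Malign_2 against 0.298 CPM in Malign_0. The drug exporter gene Abcc5 was lower in both T22 labels in both experiments (5.72 against 47.5 CPM in short-term Malign_3 and Malign_1), and Abcc1 was lower in Malign_2 (16.98 against 43.5 CPM in short-term Malign_0) but was not called in Malign_3. Catalase (Cat) was higher, at 119 CPM in long-term Malign_3 against 17.6 CPM in Malign_1, as was Sod2 in the short-term pools, at 51.1 against 22.1 CPM.

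Atf3, a stress factor of the Atf4 program, separated the labels within each line. It was at 350 CPM in long-term Malign_1 and 11.3 CPM in Malign_0, and at 354 CPM in Malign_3 and 42.7 CPM in Malign_2. In the short-term pools Atf3 was at 314 CPM in Malign_3 against 5.12 CPM in Malign_0 (log2 ratio 5.68). Ddit3 was at 20.5 CPM in long-term Malign_2 against 164 CPM in Malign_1 and Trib3 at 5.10 against 31.6 CPM. The serine synthesis gene Psat1 was at 22.9 CPM in long-term Malign_3 against 112 CPM in Malign_2. Slc7a11, also a target of this program, had 0 to 4 UMIs per malignant label, too few to compare with these differences.

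**Figure D5:**
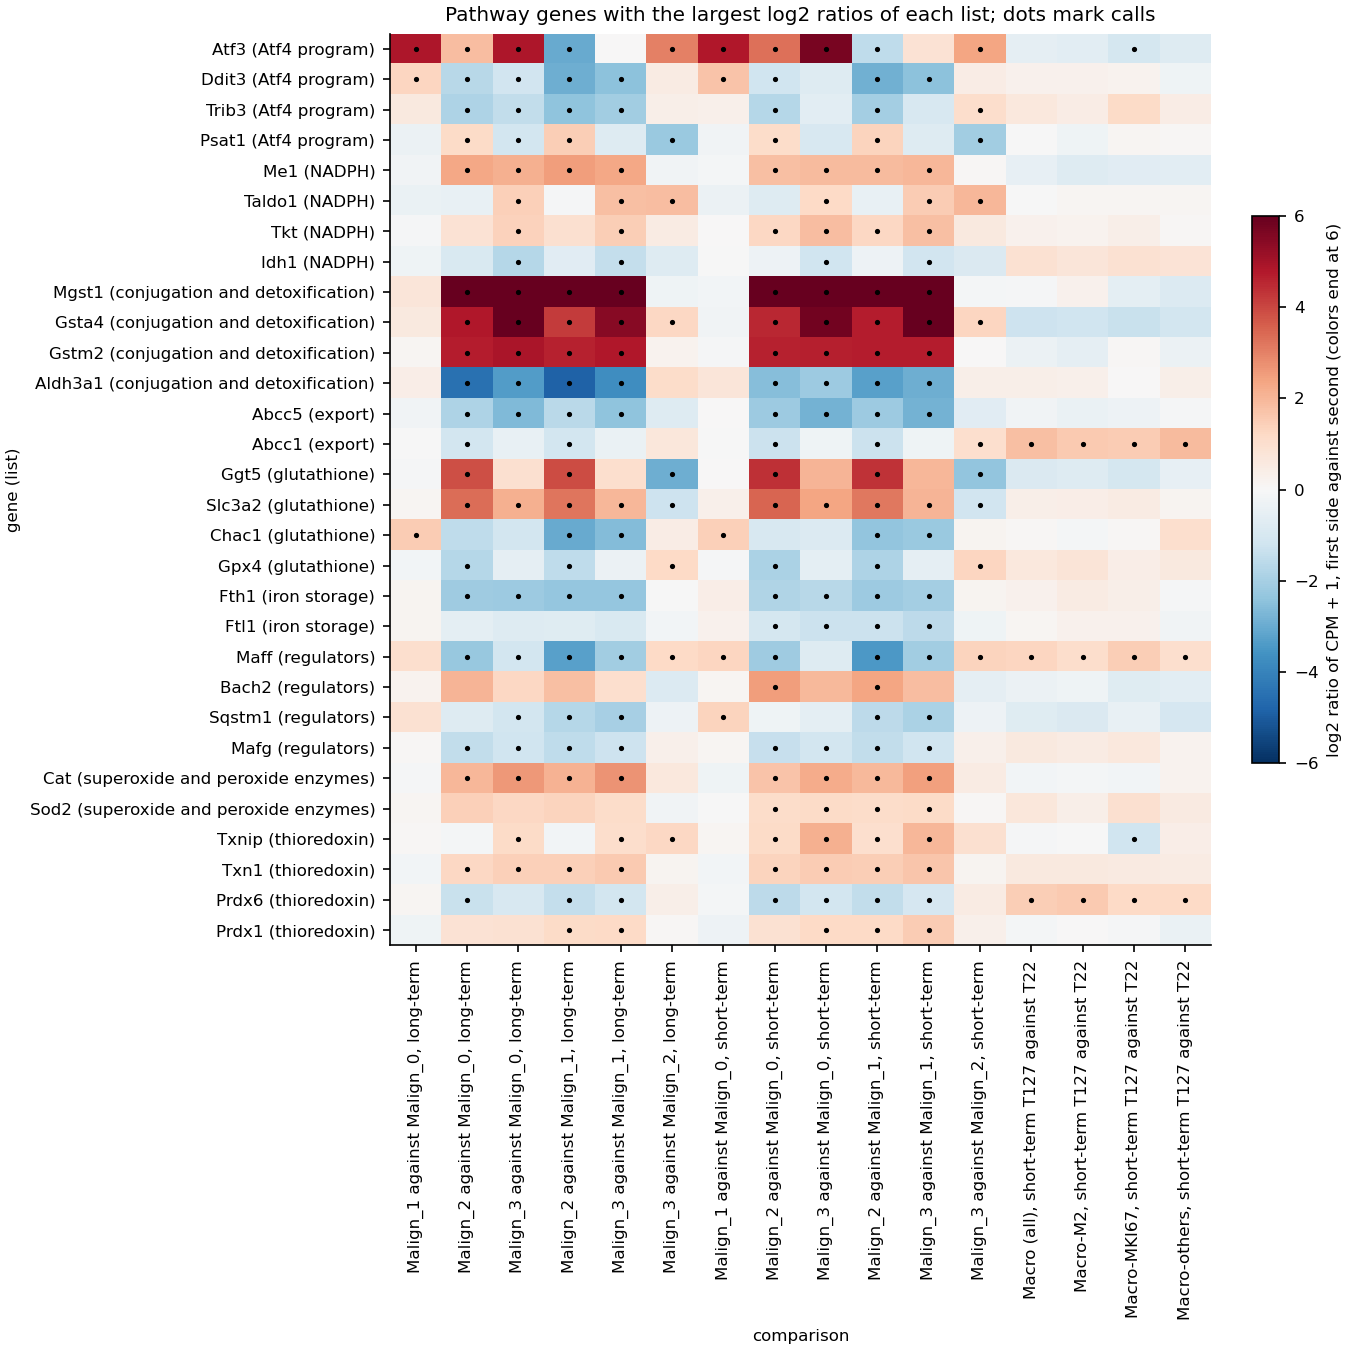
Log2 ratio of CPM + 1 (color, red for higher and blue for lower on the first side, ending at 6) of the 30 named pathway genes (y axis) in the 12 malignant and 4 macrophage comparisons (x axis), with a dot for each call. The rows of Mgst1, Gsta4 and Gstm2 are red in every comparison of T22 with T127 labels, Aldh3a1, Abcc5 and Fth1 are blue, and the macrophage columns hold few dots.

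In macrophages 5 of 47 pathway genes tested were higher in T127 and 0 lower, beside 9.01% and 6.31% of all genes. These were Gsr, the glutathione reductase gene (102 against 34.7 CPM), the peroxiredoxin gene Prdx6 (298 against 105 CPM), the exporter gene Abcc1 (46.3 against 12.6 CPM), the small Maf gene Maff (160 against 64.0 CPM) and Asns, an asparagine synthetase of the Atf4 program (6.93 against 1.43 CPM). The share called higher was near that of all genes. In Macro-M2 5 of 47 were higher and 0 lower, beside 688 and 573 of 9254 genes tested. In Macro-MKI67 5 of 48 were higher and 2 lower, beside 631 and 601 of 9492. In Macro-others 6 of 48 were higher and 0 lower, beside 960 and 599 of 9456.

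The genes whose levels followed each member most closely were ranked by Pearson r of log2(CPM + 1) over the 21 long-term labels, among 11794 genes. The labels share pools, depth and cell lineages, so r is a description, and it is given beside r over the 30 short-term profiles. Slc7a11 was closest to Tbxas1 (0.97 and 0.94), Clec4n (0.97 and 0.97) and Mgl2 (0.97 and 0.93). Nfe2l2 was closest to Ftl1 (0.96 and 0.87), Lap3 (0.96 and 0.78) and Mospd2 (0.94 and 0.92). Nqo1 was closest to Foxc1 (0.95 and 0.88), Pak3 (0.95 and 0.88) and Perp (0.94 and 0.88), and Srxn1 to Ptgs1 (0.92 and 0.84), Sgk1 (0.87 and 0.67) and Eea1 (0.85 and 0.44). For these 4 genes the nearest gene had a high r in the short-term profiles too. Txnrd1 was closest to Pias2 (0.87 and 0.31), Tars (0.85 and 0.46) and Cog4 (0.84 and 0.10). Gclm was closest to Plek2 (0.82 and 0.66), Lamb3 (0.82 and 0.54) and Uqcrq (0.81 and 0.70), and Gclc to Furin (0.79 and 0.52), Il4 (0.76 and 0.59) and Il23r (0.76 and 0.63). For Keap1 the nearest genes Tprn (0.78 and -0.11), Mroh1 (0.78 and 0.13) and Yipf6 (0.77 and 0.29) did not carry over to the short-term profiles. Among the members themselves, Nfe2l2 and Slc7a11 were the closest pair (0.81 and 0.83), followed by Nqo1 and Gclm (0.63 and 0.64). The lowest r was -0.29 for Keap1 and Srxn1 in the long-term labels and -0.55 for Gclc and Srxn1 in the short-term profiles.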

How the data were processed

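Single-cell suspensions of tumors were captured in 16 pools. With Cell Ranger 6.0.0 and build GRCm38 (names and versions per the submitters' processing notes) the authors counted exonic and intronic reads, filtered cells by genes and mitochondrial share, removed doublets, and deposited raw UMI counts of 32285 genes per cell and a cluster label per cell. Doublets were not called again. The files hold mouse genes and were treated as mouse. A table of normalized signal for part of the genes was not used.

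Counts as deposited were summed per label and experiment (labels of at least 50 cells, pools of at least 10 cells) and divided by the summed UMIs, as CPM. Within the long-term pools the deepest copy of each shared barcode was kept. Intervals are exact Poisson (levels), Clopper-Pearson (shares) and conditional binomial (ratios), at 95%. Calls needed a 2-fold ratio of CPM + 1 and separate pool ranges, and the rule was tried on simulated counts. The simulated pools varied independently, without the split between long-term pools described below, and all planted changes were larger than 2-fold. The simulation therefore does not cover calls close to 2-fold. A level of 0 is given with the limit of 3 UMIs. The planned motif search in promoters was not run, as no mouse sequence was used here.

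Named are the 8 members, the pathway genes called in any malignant comparison with the 4 largest log2 ratios of each list (30 genes), and the 3 genes most like each member among those at 10 CPM or more in a label. The 5 pathway genes called in macrophages, and the Atf3 values within each line, were picked after their values were seen. The members, lists and alternatives were chosen with earlier results of these data known. Sums and intervals were computed with pandas 2.3.3, scipy 1.17.1 and numpy 2.4.6 under Python 3.11.15, and plots with matplotlib 3.10.9.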

Additional observations from a re-analysis of the deposited data

Results flagged for a closer look

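Of 75 sets of pool values examined for a pool far from the others, 3 were found, and chance marks about 1 in 20 groups. Nfe2l2 in long-term Malign_3 had its lowest pool, pool 6, at 221 CPM. Gclm in all long-term macrophages had its lowest pool, pool 4, at 42.5 CPM, against a highest pool of 48.4 CPM. Gclc in all long-term macrophages had its highest pool, pool 7, at 22.9 CPM, against a summed level of 18.4 CPM. Of 42 log2 ratios between malignant labels compared across the 2 experiments, 1 was opposite in every pool: Nfe2l2 in Malign_2 against Malign_1 was 0.22 in the short-term pools and negative in 8 of 8 long-term pools. The difference between the experiments was not tested.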

How the results depend on the processing

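No paired analysis was possible because of separate captures where the 2 short-term groups were compared with each other, although their pool numbers are the same. Malignant labels that share a pool were compared within pools. These were the 4 labels in each long-term pool and the 2 labels of each line in its short-term pools. Their ratios within pools are descriptions, and no result comes from a test. Of 1848 alternative values of 112 log2 ratios, 0 reversed, 1777 moved by less than the spread between pools and 71 by more. A fold of 1.5 cannot change a log2 ratio, so its 112 values were bound to stay. Each setting without 1 pool moved 0 values, and could hardly move a sum beyond the spread of the same pools. The count of 1777 is therefore largely fixed by the choice of settings. The number of member calls in the long-term malignant comparisons went from 12 to 19 at a fold of 1.5. In macrophages it went from 5 to 12 at that fold and to 3 with a pseudocount of 10 CPM, which took away the Slc7a11 call in all macrophages (log2 ratio 0.80) and in Macro-M2 (0.73). Pathway calls in macrophages went from 23 to 59 at a fold of 1.5. With each pool left out in turn, member calls ran from 11 to 13 in the long-term, 17 to 18 in the short-term malignant and 5 to 6 in the macrophage comparisons. Thinning cells to 3000 UMIs took away 8 calls and moved 33 values, and a pseudocount of 10 CPM took away 10 calls and moved 26 values. The calls lost to thinning included Srxn1 for Malign_3 against Malign_2 in the short-term pools (log2 ratio 0.53) and Slc7a11 in Macro-MKI67 (2.28, with overlapping pools), while Srxn1 between T22 and T127 labels was called under each of the alternatives. Without thinning, 142 of 152 shares moved. Srxn1 in the T22 labels and Slc7a11 in macrophages rest on few UMIs, and the counts of 0 to 4 UMIs for Slc7a11 in malignant labels limit its level only.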

Other observations

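Several members split the 8 long-term pools into pools 1 to 4 and pools 5 to 8, for which the labels give no difference. Txnrd1 in Malign_0 was at 98.8, 115, 98.8, 83.6, 142, 138, 144 and 140 CPM in pools 1 to 8, and in all macrophages at 47.5, 52.8, 54.4, 43.2, 73.6, 80.8, 80.6 and 82.4 CPM. Its 4 highest pools were pools 5 to 8 in Malign_1, Malign_2 and Malign_3 too. Nqo1 went the other way in Malign_0 and Malign_1, where its 4 highest pools were pools 1 to 4. Since Malign_1 gave 293 to 360 cells in pools 1 to 4 and 109 to 157 in pools 5 to 8, a summed ratio can differ from those within pools: Txnrd1 in Malign_1 against Malign_0 had a summed log2 ratio of 0.09 and a median of 0.20 within pools, higher in 8 of 8. In alternatives chosen after seeing the data, member calls among the long-term malignant labels numbered 14 without pools 1 to 4 and 11 without pools 5 to 8, against 12 with all pools.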
